A study of Mus musculus with 4 samples.

Results

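The regions described here are 1424 short, low-scoring stretches of H3K4me3 that were called in macrophages with 1 functional copy of Wbp7 and not in macrophages with none. They were chosen by joining overlapping peaks of 4 deposited lists into 18786 regions. A region was kept where both Wbp7+/- libraries were called and both Wbp7-/- libraries were not, and where no score reached 500. The score is the peak caller's own measure of how far a peak stands above its input control. At any score, 2047 regions (10.9% of all) had this pattern of calls, and the 1424 are what remains after the 623 of 500 or above are set aside. A further 1592 weak regions were called in 1 Wbp7+/- library and no other. Presence, absence and score chose these regions, so they are given as a description and without a test.

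Wbp7, now called Kmt2b, encodes one of the methyltransferases that add methyl groups to lysine 4 of histone H3. The trimethylated form of this residue, H3K4me3, marks the start sites of active genes and CpG-rich promoters, and proteins of the transcription machinery and of chromatin remodelling complexes bind to it. In mouse embryonic stem cells the same enzyme is known for placing H3K4me3 at promoters of silent or barely expressed developmental genes. Related enzymes of the Set1 and Mll families place the mark at most active promoters.

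The mark was mapped by chromatin immunoprecipitation and sequencing in primary macrophages grown from mouse bone marrow and taken on day 7 of differentiation. The groups were Wbp7-/- cells treated with lipopolysaccharide (LPS), untreated Wbp7-/- cells, LPS-treated Wbp7+/- cells and untreated Wbp7+/- cells. LPS, a bacterial outer membrane component that activates macrophages, was given at 10 ug/ml for 4 h by the labels. All mice had a mixed background of 94% C57BL/6 and 6% 129/Ola. The sample titles call the gene MLL2, which, like MLL4, is an older name of Wbp7. The labels do not say how the allele was deleted, in which cells, or how many animals, and of which sex, gave each library. The cells with 1 functional copy are the comparison group, and no wild-type library was analysed here.

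Each group held 1 library. No difference below has a replicate check, no p-value between groups was computed, and only the treatments give separate libraries of a genotype. The lists held 15086 peaks in LPS-treated and 14599 in untreated Wbp7-/- cells, against 17313 in LPS-treated and 17316 in untreated Wbp7+/- cells. Read numbers are unknown, so an absent peak is an uncalled one, and H3K4me3 below the caller's limit may have been there. The time of the LPS-treated Wbp7+/- library is uncertain, since the header of its list reads 24 h and its label 4 h. Without that library, 2230 of the 4028 regions under 500 in untreated Wbp7+/- cells lacked any Wbp7-/- peak (55.4%, 53.8 to 56.9). Ranges in brackets after a share are its 95% Wilson interval, which covers only the error of counting regions.

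The 1424 regions covered nearly the whole range of scores that the rule allows, with more of them low than high. Their scores in LPS-treated Wbp7+/- cells ran from 50.03 to 491.95, with a median of 136.82 and quartiles of 83.75 and 236.2. In untreated Wbp7+/- cells they ran from 50.02 to 496.99, with a median of 130.61 and quartiles of 83.12 and 214.3. By the convention of the peak caller a score of 50 stands for a p-value of 1e-05. Scores under 100 were given to 485 regions (34.1%) in the LPS list and to 517 (36.3%) in the untreated list. Scores of 400 or above were given to 77 (5.41%) and 83 (5.83%).

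More of the regions scored 100 or above in both libraries than under 100 in both. At 318 regions, or 22.3% (20.2 to 24.6), both Wbp7+/- scores were under 100. At 740 regions, or 52.0% (49.4 to 54.6), both were 100 or above. The scores of the lists rose together across the 1424 regions, with a Pearson correlation of 0.70 on log10 scores and a Spearman correlation of 0.68 (n = 1424 regions). The regions share their libraries and had to pass the limit in both, so this is a description.

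**Figure D1:**
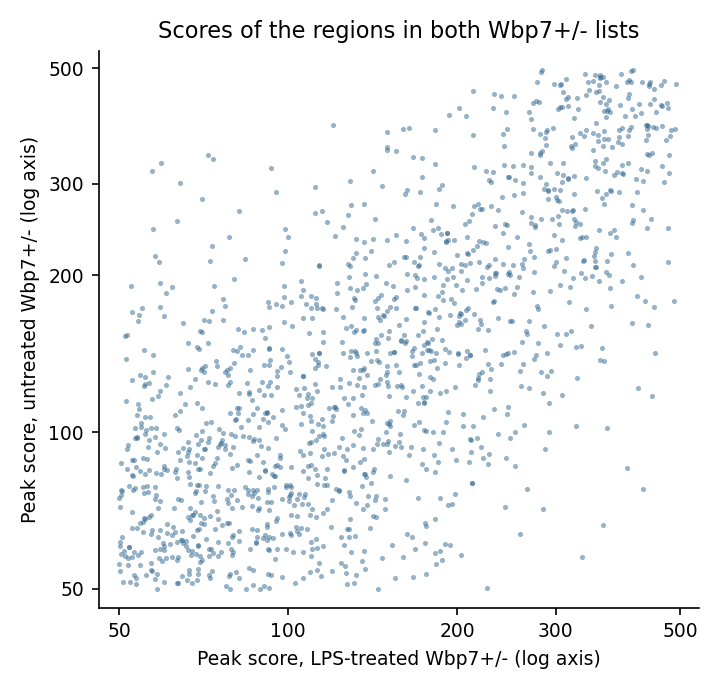
Peak score of each of the 1424 regions in LPS-treated Wbp7+/- cells (horizontal, log axis) and in untreated Wbp7+/- cells (vertical, log axis); each point is 1 region. The points widen toward 50, where the lists end, and narrow toward 500, where the rule stops, with a Spearman correlation of 0.68.

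The peaks of both Wbp7+/- libraries lay at nearly the same place. Joining asked for overlap, directly or through another peak, so overlap itself is no result and only its extent is given. At a typical region, the bases shared by the LPS and the untreated peak were 80.9% of the bases covered by either, and the centres of the peaks were 49 bp apart. The peaks shared 50% or more of their bases at 1358 of the 1424 regions (95.4%, 94.1 to 96.3). Among the 782 weak regions with a peak in all 4 lists, the shared part had a median of 79.7%, the centres were 68.75 bp apart, and 89.0% (86.6 to 91.0) shared 50% or more. At regions of all 4 lists the Wbp7+/- peaks can also be joined through a Wbp7-/- peak, so these values were not obtained under the same condition. The 623 regions of 500 or above with the same pattern of calls also had no Wbp7-/- peak to join through. Their peaks agreed more closely, with a median shared part of 88.9% and centres 47 bp apart. At 98.1% (96.7 to 98.9) of these 623 the peaks shared 50% or more. A region held 2 or more peaks in the LPS list at 16 of the 1424, and in the untreated list also at 16, so nearly all held 1 called peak in each list.

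The 10 regions best supported in both libraries, ranked by the lower of their Wbp7+/- scores, scored from 426.82 to 491.95 in LPS-treated and from 428.61 to 471.79 in untreated Wbp7+/- cells. Positions are in mm9, counted from 1. The first lay on chromosome 7 from 108079617 to 108081556, scored 491.95 after LPS and 467.11 untreated, and had peaks of 1886 and 1841 bp. Its nearest Wbp7-/- peak was 27.168 kb away. The second, on chromosome 17 from 35195140 to 35196986, scored 466.63 and 471.79, and its peak measured 1194 bp after LPS and 1847 bp untreated.

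The others lay on several chromosomes, and 1 of them, on chromosome 13, belongs to a chain described below. On chromosome 3 the region from 8766703 to 8768201 scored 461.39 after LPS and 464.14 untreated, and the nearest Wbp7-/- peak was 98.528 kb away. On chromosome 9 the region from 43942218 to 43943597 scored 449.45 and 455.4. Chromosome 7 held 2 more of the 10, from 116924447 to 116925572 and from 108969949 to 108971179.

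The limit of 500 cuts through a continuous range. Just inside it was a region of chromosome 12 (85349880 to 85350977), which scored 411.96 after LPS and 496.99 untreated. Just outside it was a region of chromosome 7 (91753807 to 91755022), which scored 482.49 and 503.02. The 5 nearest regions inside had highest scores of 490.81 to 496.99, and the 5 nearest outside 503.02 to 506.41. At the other end, the lowest-scoring region, on chromosome 5 from 98596194 to 98596901, scored 50.77 after LPS and 51.57 untreated, against a lowest value of 50 in the lists.

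How often a weak Wbp7+/- region lacked a Wbp7-/- peak depended on its score. Of the 2647 regions in both Wbp7+/- lists with a highest score under 500, the 1424 were 53.8% (51.9 to 55.7). A further 441 (16.7%) had a peak in 1 Wbp7-/- list and 782 (29.5%) in both. Where only 1 Wbp7-/- list had the peak, its score was low, with a median of 75.66 at the 263 regions found in LPS-treated Wbp7-/- cells and 72.02 at the 178 found in untreated Wbp7-/- cells. At the 782 regions of all 4 lists the medians were 132.24 in LPS-treated and 144.65 in untreated Wbp7-/- cells. Regions kept in 1 Wbp7-/- list thus had Wbp7-/- scores nearer the limit of 50 than regions kept in both. Passing that limit in 1 list or in both is what sorted these regions, so this is a description and no separate result.

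Regions were also banded by the highest score in the lists of the genotype that had them, whatever they scored in the other genotype. This adds regions of 500 or above in the other genotype. The 1424 were 49.6% (47.8 to 51.4) of the 2871 Wbp7+/- regions counted in this way. Neither Wbp7-/- list had a peak at 65.6% (61.2 to 69.7) of 485 Wbp7+/- regions under 100 and at 53.5% (50.5 to 56.5) of 1035 from 100 to under 200. The share was 42.8% (38.8 to 46.8) of 587 from 200, 38.4% (33.9 to 43.04) of 435 from 300, and 40.7% (35.6 to 46.1) of 329 from 400 to under 500. Each of the first 3 bands had a lower share than the one before it, and the bands from 200 up had overlapping intervals. So 318 of the 1424 regions came from the band where a missing peak was most frequent, and 552 from the bands of 200 and above.

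The same rule with the genotypes exchanged gave 334 weak regions, called reverse regions below, which were 23.8% (21.7 to 26.1) of the 1401 weak regions found in both Wbp7-/- libraries. Banding again adds regions of 500 or above in the other genotype, and the 334 were 15.8% (14.3 to 17.4) of the 2114 regions then counted. Banded in this way, the share without a Wbp7+/- peak was 24.4% (20.2 to 29.1) under 100, 17.2% (14.7 to 20.0) from 100, 13.0% (10.2 to 16.6) from 200, 13.8% (10.5 to 18.1) from 300 and 6.75% (4.25 to 10.5) from 400 to under 500. In each band the Wbp7+/- regions were the more often unmatched. The depths behind the lists are unknown, and the lists differ in length. With each list limited to the length of the shortest, the rule gave 580 regions, and the reverse rule 604, so the order of these counts turned. The shares were then 52.3% (49.3 to 55.2) of 1110 weak regions in both Wbp7+/- lists and 47.7% (44.9 to 50.4) of 1267 in both Wbp7-/- lists, of which the second was computed after seeing the data. At equal length their intervals overlapped, and the shares by band were not recomputed in this way. Genotype and depth cannot be told apart in this design.

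**Figure D2:**
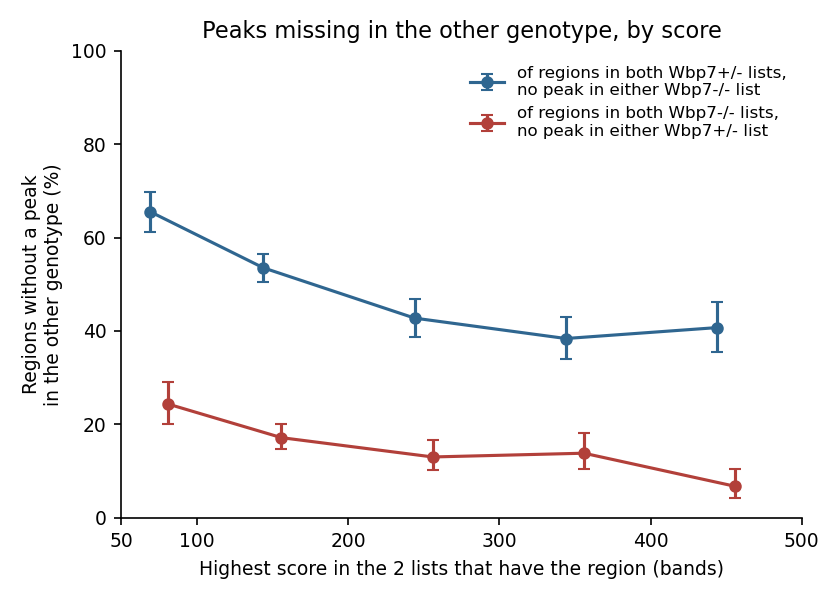
Share of regions without a peak in the other genotype (vertical, %) against the highest score in the 2 lists that have the region (horizontal, bands of 100 starting at the lists' limit of 50). Blue is regions in both Wbp7+/- lists, red is regions in both Wbp7-/- lists, and bars are 95% Wilson intervals; the blue shares run from 65.6% to 38.4% and the red ones from 24.4% to 6.75%.

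The weak Wbp7+/- regions were narrow. Their peaks had a median width of 731.5 bp in LPS-treated Wbp7+/- cells (quartiles 565.5 and 915) and 697 bp in untreated Wbp7+/- cells (quartiles 542.75 and 881). At the 782 weak regions of all 4 lists, the Wbp7+/- peaks measured 881.5 bp after LPS and 913.5 bp untreated. The 623 regions of 500 or above with the same pattern of calls had medians of 1250 and 1185 bp. The 1424 thus had the lowest median width of these 3 sets in both libraries.

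Among the 1424, higher-scoring regions were wider, so widths were set beside each other within bands of the highest Wbp7+/- score. Under 100, the regions without a Wbp7-/- peak had a median width of 560 bp after LPS and 556 bp untreated. At the weak regions of all 4 lists the medians were 702 and 787.5 bp. From 200 to under 300 the widths were 794 and 763 bp, against 863 and 873 bp. From 400 to under 500 they were 931.5 and 872 bp, against 999 and 960.5 bp. In all 5 bands and in both libraries the median of the regions without a Wbp7-/- peak was below that of the weak regions of all 4 lists. Against the weak regions kept in 1 Wbp7-/- list this did not hold throughout. In untreated cells the regions without a Wbp7-/- peak had the larger median from 300 to under 400, with 828 against 803 bp. From 400 to under 500 it was again larger, with 872 against 846 bp. In the lower untreated bands, and in every band after LPS, it was smaller. The weak regions of all 4 lists scored under 500 in every list, so regions that reached 500 in a Wbp7-/- list were not compared. The quartile ranges overlapped in every band.

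**Figure D3:**
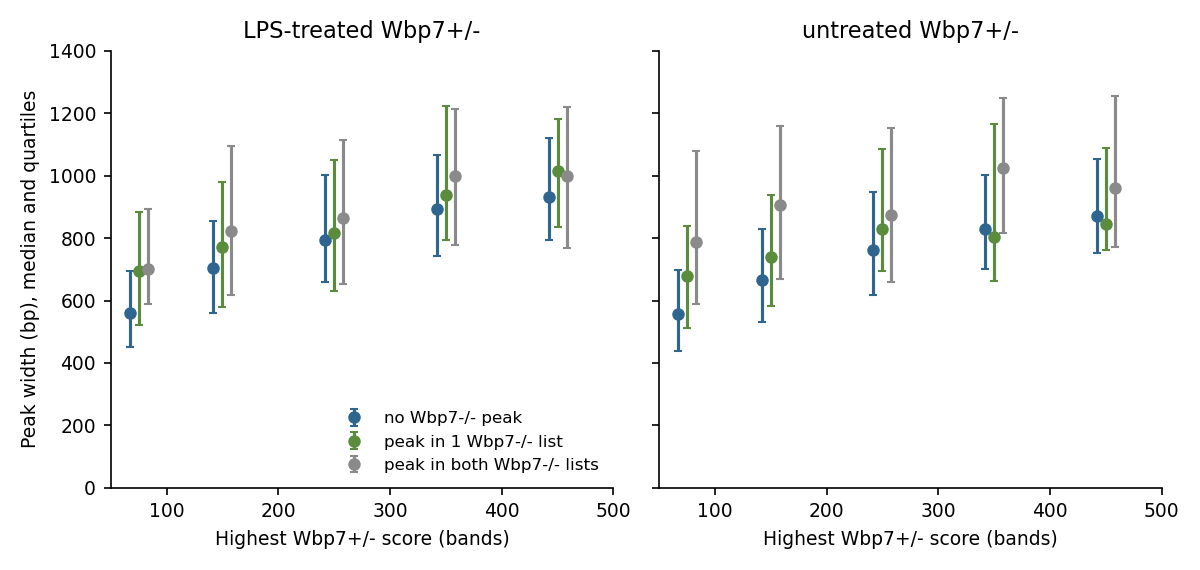
Width of the Wbp7+/- peak (vertical, bp; points are medians and bars the quartiles) in LPS-treated cells (left) and untreated cells (right), by the highest Wbp7+/- score (horizontal, bands of 100 starting at 50). In both panels the blue medians of regions without a Wbp7-/- peak lie below the grey medians of regions that both Wbp7-/- lists also had (green, 1 of them), from 560 against 702 bp in the lowest band to 931.5 against 999 bp in the highest after LPS.

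A few of the regions were broad despite their low scores. The widest, on chromosome 1 from 180457411 to 180460008, had a peak of 2598 bp with a score of 241.19 after LPS, and one of 1310 bp with a score of 373.13 untreated. On chromosome 11 the region from 119590185 to 119592548 had peaks of 2172 and 2364 bp. After LPS both were wider than the median of 1740 bp over all peaks of that list. On chromosome 17 the region from 34422483 to 34424842 was called as 2 peaks after LPS and as 1 peak of 1399 bp untreated, so part of its breadth of 2360 bp comes from joining.

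LPS and untreated widths were close at most of the regions. The LPS peak was wider than the untreated one at 814 of the 1424 regions and narrower at 607, with a median ratio of 1.04. It was wider by 1.5 times or more at 111 regions (7.79%, 6.51 to 9.30), where 5.86% of all 15039 regions in both Wbp7+/- lists were. It was narrower by as much at 59 regions (4.14%, 3.23 to 5.31), where 3.25% of all were. Among the 782 weak regions of all 4 lists the numbers were 70 (8.95%) and 79 (10.1%). Both shares of the 1424 were within a few percentage points of the background, and the interval of the narrower ones reaches it.

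The largest ratios came from peaks near the detection limit. On chromosome 13 the region from 41016036 to 41017969 measured 1740 bp after LPS and 575 bp untreated, with scores of 50.49 and 58.27. On chromosome 2 the region from 58004500 to 58006265 measured 514 bp after LPS and 1708 bp untreated, with scores of 52.76 and 170.19. The 5 largest ratios ran from 2.65 to 3.03 and the 5 smallest from 0.30 to 0.45. Of these 10 regions, all but 1 on chromosome 17 (88012355 to 88013303, scoring 141.06 and 104.94) scored 70 or less in at least 1 library. That region was called as 2 peaks after LPS, and its LPS width of 378 bp is that of the higher-scoring peak alone. Regions on chromosome 9 (20531009 to 20532544, untreated) and chromosome 10 (5742816 to 5744170, after LPS) were also called as 2 peaks in 1 list.

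Most of the weak regions lay more than 10 kb from a region that all libraries had, and 324 of the 1424 (22.8%, 20.65 to 25.002) lay nearer. Their nearest neighbour with a peak in all 4 lists was at a median distance of 29.5 kb (quartiles 11.228 and 72.382). A region of all 4 lists lay within 5 kb of 202 of the 1424 (14.2%, 12.5 to 16.1) and within 1 kb of 56 (3.93%, 3.04 to 5.07). The 623 stronger regions with the same calls were farther away, with a median of 46.309 kb and 7.70% (5.86 to 10.1) within 5 kb. The 334 reverse regions were nearer, with 21.59 kb and 22.8% (18.6 to 27.5). The weak regions kept in 1 Wbp7-/- list were nearest, with 15.854 kb and 28.6% (24.6 to 33.0). The intervals at 5 kb of the 1424 regions overlapped none of these 3. With lists of equal length the share of the weak Wbp7+/- regions was 9.83%, within the interval given above for the stronger ones. The other sets were not recomputed at equal length, so the order was not tested there.

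**Figure D4:**
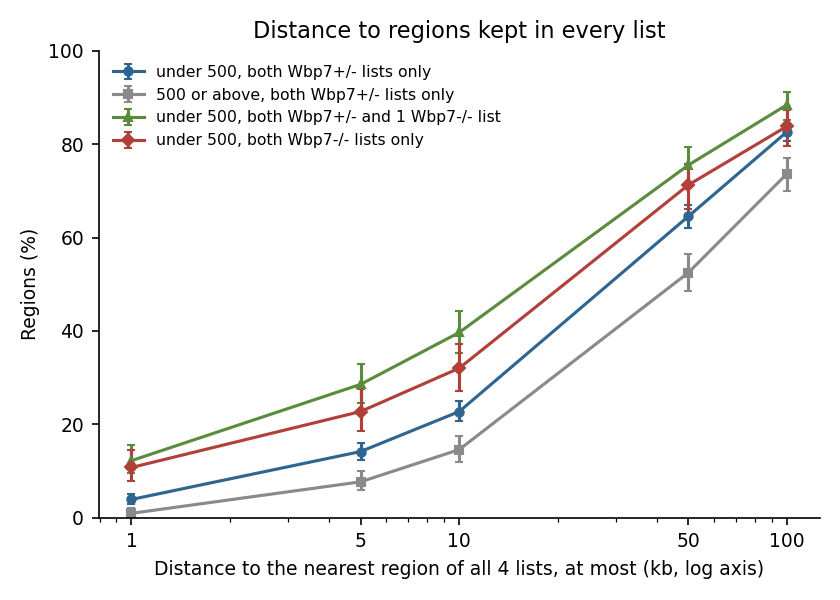
Share of regions (vertical, %) whose nearest region of all 4 lists lies within the distance on the horizontal axis (kb, log axis), with 95% Wilson intervals. At 5 kb the 1424 weak Wbp7+/- regions (blue, 14.2%) lie between the stronger regions with the same calls (grey, 7.70%) and the reverse regions (red, 22.8%); the weak regions kept in 1 Wbp7-/- list are green.

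Some absences had a Wbp7-/- peak close by. A Wbp7-/- peak lay within 1 kb of 76 of the 1424 regions (5.34%, 4.29 to 6.63), and with lists of equal length the share was 2.76%. The neighbours of these 76 were classed by the nearest joined region that held a Wbp7-/- peak. This was a region of all 4 lists at 51, a region with peaks in both Wbp7-/- lists and no other at 2, and another region at 23. The 76 are therefore mostly weak peaks of the Wbp7+/- lists beside a region that all libraries had. Without the LPS-treated Wbp7+/- library, 214 of the 2230 regions (9.60%, 8.44 to 10.9) had a Wbp7-/- peak within 1 kb, and 423 (19.0%, 17.4 to 20.6) lay within 5 kb of a region of the other 3 lists. Both shares were higher than with that library. Leaving it out also admits regions called in the untreated library alone.

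Kept neighbours were typical in width. The 202 regions within 5 kb had 193 different neighbours, with a median width of 2619 bp. Of the 202 nearest neighbours, 107 (53.0%, 46.1 to 59.7) stood at the top score of 3100 or above in all 4 lists. Over all 12294 regions of all 4 lists the median width was 2585.5 bp and the share was 68.5% (67.7 to 69.3). Neighbours were less often at the top score than kept regions as a whole, and the intervals of these shares did not overlap.

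The regions lay on all 20 chromosomes represented, from 38 on chromosome 16 to 121 on chromosome 11. They made up 48.1% (37.4 to 58.9) of the weak regions in both Wbp7+/- lists on chromosome 16 and 66.7% (55.4 to 76.3) on the X chromosome. On chromosome 11 the share was 63.0% (56.0 to 69.5). The intervals of the X chromosome and chromosome 11 left out the share of 53.8% over all chromosomes, and the other 18 held it. With peaks under 100 left out of every list these 2 no longer stood apart, with 68.1% and 73.9% beside 66.6% over all. Chromosomes 10 and 12 did so instead, with 55.7% (45.3 to 65.6) and 86.0% (73.8 to 93.0), so no chromosome stood apart under both settings.

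Most of the regions had no other of the 1424 within 50 kb. The spacing of other classes of regions was not computed, so whether the 1424 are sparse or grouped was not tested. At 295 of the 1424 (20.7%, 18.7 to 22.9) another lay within 50 kb. Other settings gave smaller sets of weak Wbp7+/- regions. The number was 67 of 580 once the lists were made equally long, 156 of 984 where peaks scoring below 100 were dropped and 165 of 1123 for a limit of 300. Chains of regions with gaps of at most 50 kb numbered 119 with 2 regions, 12 with 3, 2 with 4, 1 with 5 and 1 with 8, and 1129 regions had no such neighbour. The chains of 4 or more are described below.

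The chain of 8 lay on the X chromosome from 47919674 to 47973278, a span of 53.605 kb. It held 12 regions in all, every one called in LPS-treated Wbp7+/- cells and none in all 4 lists. Besides the 8 there was 1 stronger region from 47964906 to 47965622, with scores of 898.01 after LPS and 758.55 untreated and no Wbp7-/- peak. Of the other 3, 1 was also called in LPS-treated Wbp7-/- cells with a score of 62.9, 1 in untreated Wbp7-/- cells with a score of 76.93, and 1 in no library but LPS-treated Wbp7+/- cells. The Wbp7-/- libraries thus had 2 peaks near the limit where the Wbp7+/- libraries had 12 and 11.

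Within that chain the 8 weak regions were narrow, with peaks of 340 to 678 bp after LPS and 339 to 678 bp untreated. The highest-scoring, from 47943921 to 47944631, scored 343.27 after LPS and 453.49 untreated. Next came the region from 47953062 to 47953713, with 410.47 and 273.26, and that from 47955805 to 47956159, with 326.66 and 126.95. Neither library was the higher throughout, since 5 of the 8 scored higher in the LPS list and 3 in the untreated list. Scores of different lists depend on their depths and measure no change.

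**Figure D5:**
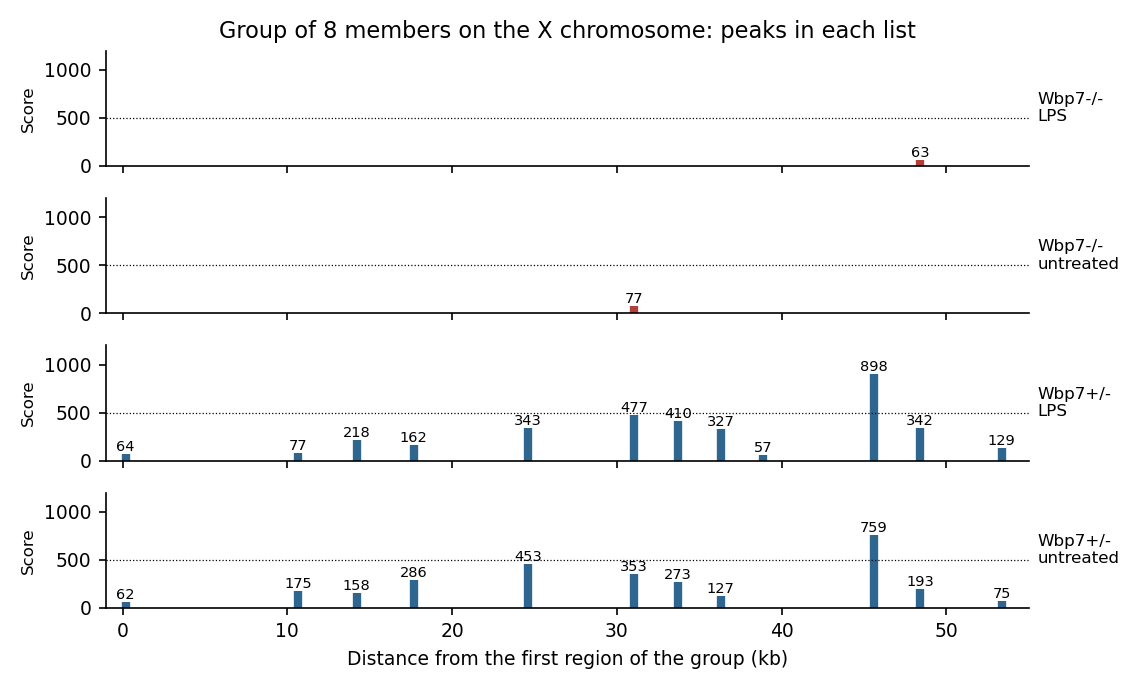
Peak scores (vertical, same scale in every panel) along the chain on the X chromosome (horizontal, distance from its first region in kb) in LPS-treated and untreated Wbp7-/- cells (red) and LPS-treated and untreated Wbp7+/- cells (blue); the dotted line is the limit of 500. The Wbp7-/- panels hold 1 peak each, of 62.9 and 76.93, and scores may be read within a panel only.

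The chain of 5 lay on chromosome 13 from 21263455 to 21371772, with a strong region of each kind between its members. The region from 21270719 to 21274287 stood at 3100 in all 4 lists. The region from 21291051 to 21292956 stood at 3100 in both Wbp7+/- lists and had no Wbp7-/- peak. The weak members around them scored from 96.63 to 440.52 after LPS and from 90.25 to 469.62 untreated. Within 108.318 kb there were therefore a region kept at the top score, a top-scoring region without a Wbp7-/- peak and 5 weak ones without.

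Of the chains of 4, that on chromosome 11 from 87235594 to 87284625 held no region of another kind. Its members scored 112.31, 125.65, 62.09 and 210.37 after LPS and 176, 84.26, 190.37 and 87.67 untreated, in order of position, so the order of the scores differed between the libraries. The chain on chromosome 18 from 37853902 to 37916033 held 3 regions of other kinds. Its 4 members scored from 68.88 to 308.03 after LPS and from 73.74 to 233.51 untreated. Between them, 1 region had a Wbp7-/- peak after LPS alone, with a score of 84.26. Another 2 regions had a peak in all 4 lists, and these scored 64.59 and 136.73 in LPS-treated and 56.65 and 151.02 in untreated Wbp7-/- cells. The member from 37853902 to 37854630 had Wbp7+/- scores of 308.03 after LPS and 233.51 untreated, above those of the regions of all 4 lists, which scored 288.11 and 255.51 after LPS and 225.68 and 176.19 untreated. The other 3 members scored below these, at most 92.15 after LPS and 113.67 untreated.

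Genes, base composition and sequences at these positions were not analysed here, because the gene and promoter tables used are of GRCm38 and the lists are of mm9. The labelled cell type was for the same reason not checked against macrophage markers.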

How the data were processed

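H3K4me3 chromatin from 4 libraries was immunoprecipitated with 10 ug of antibody after fixation in 1% formaldehyde for 10 min, per the labels' protocols. Reads were aligned with Bowtie to mm9, per the submitters' processing notes, and peaks were called with MACS against input, per the file headers. The sources used here do not give versions, thresholds or depths. The authors deposited 1 peak list per library with a score per peak. Regions were classed and ranked by the highest or the lower of these scores over the lists that had them, and no change between lists was read from scores. Groups came from sample titles.

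Overlapping peaks (1 bp or more) were joined with bedtools 2.31.1. A region's score and width in a list are those of its highest-scoring peak there. Distances between regions run from edge to edge, and distances to a Wbp7-/- peak run from the region's edge to that peak's edge. Shares carry 95% Wilson intervals (scipy 1.17.1). With 1 library per group no test was run. The counting steps were checked on simulated lists, slightly shifted copies of 15921 well separated peaks of the untreated Wbp7+/- list. The same 200 weak peaks were removed from both simulated Wbp7-/- lists, and 200 of 200 were recovered with 0 false. Such copies hold no noise of calling, difference of depth or crowded peaks, so the result does not speak for the calls.

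Regions named are the 10 with the highest lower score, the 5 widest, the 5 lowest, the 5 on each side of the limit, the 5 most extreme width ratios each way and the 3 longest chains, 4 with a tie, and the text prints the leading ones. Members and lists were chosen with earlier results of these data known. The planned comparisons by gene were not run, as no mm9 annotation was used.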

Additional observations from a re-analysis of the deposited data

How the results depend on the processing

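Of 72 alternative values other than those of single chromosomes, 31 stayed close to the reported ones and 41 did not. Close means within 1.5 times for counts and within the 95% interval for shares and medians. With single chromosomes included, 34 of 92 stayed close and 58 did not. No paired analysis was possible because each group held 1 library. Asking for an overlap of 0.5 of the shorter peak, joining peaks within 1 kb, and counting a peak within 1 kb as present gave 1449, 1314 and 1348 weak Wbp7+/- regions. With lists of equal length the rule gave 580 weak Wbp7+/- regions and the rule with the genotypes exchanged 604 weak Wbp7-/- regions, which turns their order. The share of weak Wbp7-/- regions without a Wbp7+/- peak, added after seeing the data, was then 47.7%. That setting trims the longer Wbp7+/- lists more by construction. Leaving out 1 library gave 1622 to 2484 weak Wbp7+/- regions and 396 to 843 weak Wbp7-/- regions. The count of 2484 is without the untreated and that of 2230 without the LPS-treated Wbp7+/- library. The count of 843 is without the LPS-treated and that of 736 without the untreated Wbp7-/- library, and that of 575 is without the untreated Wbp7+/- library. Fewer lists then have to agree.

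Values below are for LPS-treated before untreated Wbp7+/- peaks. With peaks under 100 left out, the share of weak Wbp7+/- regions without a Wbp7-/- peak was 66.6%, and the weak Wbp7-/- regions numbered 222. Widths were then 821.5 and 794 bp, scores 218.24 and 209.38, and the shared part 83.1%. Of the 984 weak Wbp7+/- regions of that setting, 156 lay within 50 kb of another. The shares of 17 of 20 chromosomes left their interval. With equal lengths, widths were 863.5 and 820 bp, scores 263.98 and 240.71, and the shared part 83.1%. Of the 580 regions, 9.83% lay within 5 kb of a region of all 4 lists, 2.76% had a Wbp7-/- peak within 1 kb, and 67 lay within 50 kb of another. With a limit of 300, the share was 58.6%, widths 678 and 653 bp, scores 112.23 and 106.88, the shared part 79.9%, and 165 of 1123 regions lay within 50 kb of another. With a limit of 1000, the share was 47.8%, widths 783.5 and 753 bp, scores 170.79 and 156.07, and the shared part 82.2%. Joining within 1 kb left 10.1% within 5 kb and, by construction, 0% with a Wbp7-/- peak within 1 kb. A region of all 4 lists lay within 10 kb of 22.8% and a Wbp7-/- peak within 5 kb of 16.4%. The cause of these shifts was not tested beyond the settings' own construction.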
